A study of Homo sapiens with 4 samples.

Results

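The metalloproteases of the matrix and the cell surface, with their tissue inhibitors, were read on the arrays of a breast epithelial cell line with and without an shRNA against Pak1. Members were chosen by gene name alone, as every matrix metalloprotease (MMP), ADAM, ADAMTS and TIMP gene of the array design. The rule found 66 genes among the 27193 gene names on the array. They were read by 87 of 34127 probes and 105 of 43118 spots other than controls. The cells were MCF10A.B2, a line made from the human breast epithelial line MCF10A that carries a chemically activatable Her2 receptor, and all 4 samples shared that receptor, 3 h of serum starvation and 15 min with the crosslinker AP1510, which switches the receptor on. The 2 samples of the Pak1 shRNA group carried a Tet-inducible shRNA against Pak1, and the 2 control samples are labelled only as control cells. The labels do not say whether the control cells were parental or uninduced, and they name no non-targeting shRNA for any sample. By the labels and the methods the RNA came from the cultured line, although the design text speaks of tumors. Neither says whether the samples of a group were separate cultures, so the p-values measure the spread between these arrays only.

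MMPs are zinc-dependent endopeptidases that are made as inactive precursors and cut collagens, basement membrane and other matrix proteins. ADAMs are anchored in the membrane, and those with an active site release the outer parts of growth factors, cytokines and adhesion molecules, a process called shedding. ADAMTS proteases are secreted and cut proteoglycans, procollagens and von Willebrand factor, while TIMPs bind the active site of MMPs and of some ADAM and ADAMTS proteases. In breast epithelium these families are known for their part in gland remodelling and in the breach of the basement membrane.

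PAK1 itself was read first, since it checks the labels. Normalized log2 intensities of 11.19 and 11.27 were read in control cells, against 10.44 and 10.52 in Pak1 shRNA cells. The groups did not overlap, and the shRNA arrays were at 59.5% of control (log2 fold change -0.75, SE 0.077, adjusted p = 0.00018). All 4 arrays lay on 1 slide, and between 78.8 and 83% of probes were well above background on each. Of the markers of basal epithelium, 10 of 10 were well above background on every array, and they summed to 549402 to 609837 in control and 682229 to 707612 in Pak1 shRNA cells. Among them KRT5 fell by 1.14, TP63 fell by 1.13, KRT14 fell by 0.95 and KRT17 fell by 0.72 on the log2 scale, LAMB3, CDH1 and KRT6A rose with log2 fold changes of 1.34, 0.98 and 0.31, and 3 did not pass. Of 8 fibroblast markers, COL1A2, COL3A1, PDGFRA and THY1 were not well above background on any array. The summed intensity of the 4 that were tested was 3957 to 4712 in control and 7805 to 8006 in Pak1 shRNA cells. Of these, LUM, DCN and COL1A1 rose with log2 fold changes of 1.79, 0.88 and 0.87, and PDGFRB fell by 0.58. DCN was by far the brightest and weighed most in the sum. The 6 leukocyte and macrophage markers tested summed to 20648 to 21739 in control and 53546 to 58954 in Pak1 shRNA cells, and 4 of the 6 rose, namely CD68, CD14, CSF1R and ITGAM with log2 fold changes of 3.75, 1.32, 0.66 and 0.46. PTPRC, the general leukocyte marker, was at 0.13 (adjusted p = 0.22) and CD3E at 0.14 (adjusted p = 0.14). Endothelial markers summed to 1135 to 1174 in control and 921 to 948 in Pak1 shRNA cells, but they did not move together. PECAM1 fell by 1.56 and TEK by 0.33 on the log2 scale, VWF rose by 0.37, and CDH5 and KDR did not pass. TEK was not well above background in Pak1 shRNA cells. The part of these marker shifts in the results that follow was not tested, and in bulk RNA fewer cells of a type and less RNA per cell cannot be told apart.

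Most members that changed were higher in Pak1 shRNA cells. Of the 66 genes, 49 gave signal well above background throughout 1 group or both and were tested, 26 rose, 7 fell and 16 did not pass the test. The called share, 67.3%, stood beside 62.9% of all 22001 genes tested, so that being called was near the background of this comparison. The rises made up 53.1% of tested members beside 31% of all genes, and the falls 14.3% beside 31.9%. At least 2-fold rises were seen for 17 members, or 34.7% beside 8.86% of all genes, and a fall of that size for 1 member, or 2.04% beside 8.96%. The median log2 fold change was 0.33 over tested members and 0.02 over all genes tested. The groups did not overlap for 41 of 49 members (83.7%, beside 81.8% of all genes). MMP13 and MMP3 passed the filter only through the Pak1 shRNA group, and 44 members were well above background on all 4 arrays, of which 24 rose and 7 fell. With the background model fitted on all spots, 13 in place of 17 members rose at least 2-fold, since MMP2, MMP3, ADAM20 and ADAM11 then stayed under that size.

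**Figure D1:**
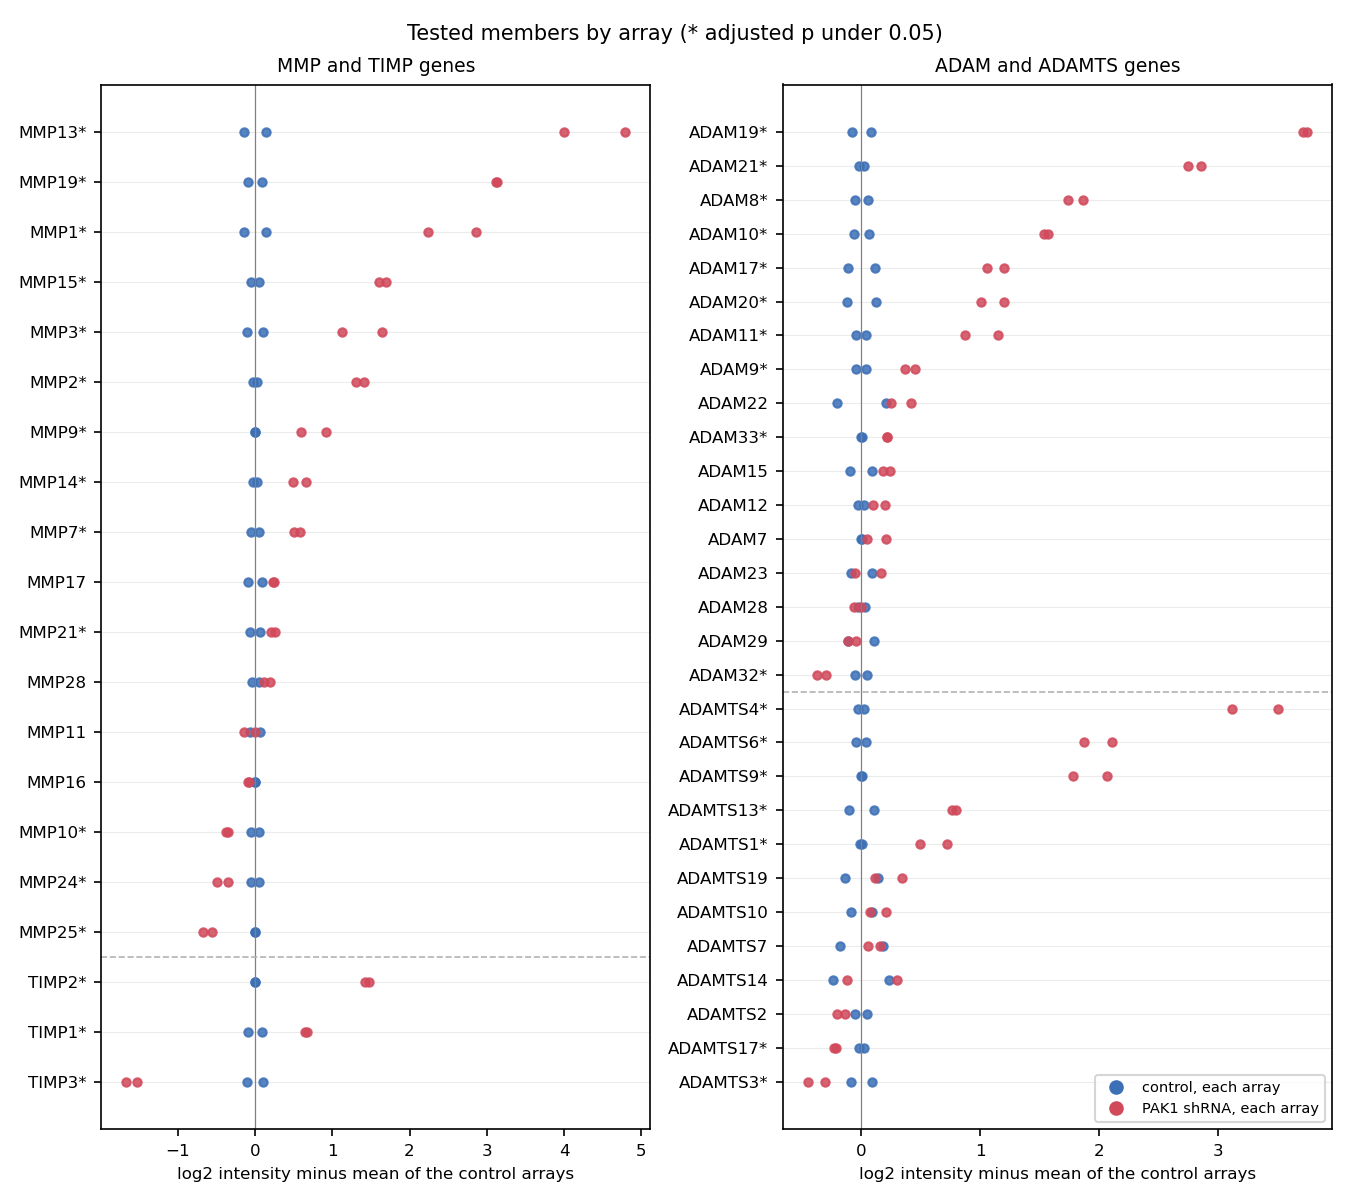
Normalized log2 intensity of each tested member on each array, minus the mean of the control arrays (x axis), with 1 row per gene, MMP and TIMP genes on the left and ADAM and ADAMTS genes on the right. Blue points are control arrays, red points Pak1 shRNA arrays, and an asterisk marks an adjusted p under 0.05; MMP13, ADAM19, ADAMTS4 and MMP19 lie farthest to the right, and TIMP3 lies farthest to the left.

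**Figure D2:**
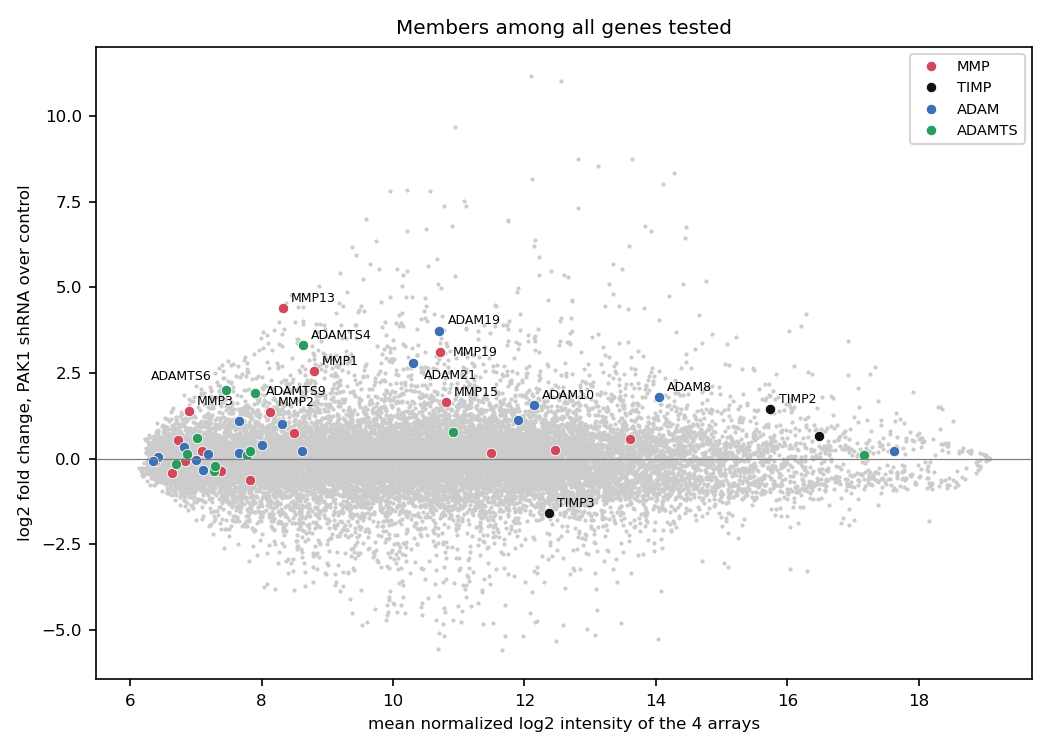
Log2 fold change of Pak1 shRNA over control (y axis) against the mean normalized log2 intensity of the 4 arrays (x axis) for the 22001 genes tested (grey), with the 49 tested members in colour by family. The named members lie mostly above 0, and genes outside the families reach larger changes in both directions.

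The collagenases, which cut fibrillar collagen, held the largest fitted log2 fold change among the members, that of MMP13 at 4.39. MMP13 read 6.27 and 5.98 in control and 10.12 and 10.92 in Pak1 shRNA cells. It was not well above background on either control array, so its fold is given as a bound, at least 21.0-fold with this processing (adjusted p = 1.3e-05). The lowest signal well above background, 5.65 on each control array, lay below its control readings, so this bound equals the fitted fold. That bound moved from 7.43 to 105 with the background and scaling method. MMP1 read 7.38 and 7.66 in control and 9.76 and 10.38 in Pak1 shRNA cells. Its groups stood well apart, with a log2 fold change of 2.55 (SE 0.20, adjusted p = 5.8e-05).

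Both gelatinases, which cut denatured and basement membrane collagen, were higher. MMP2 read 7.47 and 7.42 in control and 8.85 and 8.75 in Pak1 shRNA cells, a log2 fold change of 1.36 (SE 0.08, adjusted p = 1.4e-05). MMP9 rose by less, at 0.76 on the log2 scale (SE 0.12, adjusted p = 0.0013).

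The stromelysins, which cut many matrix proteins and can activate other MMPs, did not move as 1 group. MMP3 read 6.09 and 6.31 in control and 7.33 and 7.85 in Pak1 shRNA cells. As its control arrays were not well above background, its rise is given as a bound, at least 2.62-fold with this processing (adjusted p = 0.00046). This bound, too, equals the fitted fold, and it moved from 1.67 to 11.7 with the background and scaling method. MMP10 went the other way, from 7.50 and 7.62 in control to 7.19 and 7.21, and fell by 0.37 on the log2 scale (adjusted p = 0.0059). MMP11 overlapped between groups (log2 fold change -0.08, adjusted p = 0.48). The matrilysin MMP7, a small MMP of epithelial cells, read 6.40 and 6.51 in control and 6.96 and 7.04 in Pak1 shRNA cells, a log2 fold change of 0.54 (adjusted p = 0.0011).

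Among the 6 membrane-type MMPs, 2 rose, 2 fell and 2 did not pass. The called share, 66.7%, was near the 62.9% of all genes tested. MMP15 read 10.03 and 9.93 in control and 11.68 and 11.58 in Pak1 shRNA cells, a log2 fold change of 1.65 (SE 0.08, adjusted p = 7.5e-06). MMP14, the activator of pro-MMP2 at the cell surface, rose by 0.57 on the log2 scale (adjusted p = 0.0012). MMP25 fell by 0.62 and MMP24 by 0.42 on the log2 scale, while MMP17 at 0.24 (adjusted p = 0.051) and MMP16 at -0.08 did not pass. Of the remaining MMPs, MMP19 read 9.25 and 9.07 in control and 12.28 and 12.29 in Pak1 shRNA cells, a log2 fold change of 3.12 (SE 0.09, adjusted p = 9.7e-07). MMP21 was higher by 0.23 (adjusted p = 0.043), and MMP28 was at 0.15 (adjusted p = 0.13). MMP21 and MMP17 lay close to the threshold, and the side on which each fell depended on the processing. Over the settings MMP21 ranged from 0.12 to 0.61 and MMP17 from 0.14 to 0.34 on the log2 scale.

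Of the MMP genes, 9 lie together on chromosome 11, where their probes span 420 kb (hg19, chr11:102394029-102813832). Of these, 5 were tested, and each of the 5 was called, beside 62.9% of all genes tested. MMP3 and MMP13 were tested only because they were well above background in the Pak1 shRNA group. The filter thus favoured their calls, and the count is not read against that share. In order along the chromosome, MMP7 was higher, MMP10 lower, and MMP1, MMP3 and MMP13 higher. MMP20, MMP27, MMP8 and MMP12, which lie between them, were not well above background on any array.

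The TIMPs divided by gene. TIMP1 read 16.24 and 16.06 in control and 16.81 and 16.82 in Pak1 shRNA cells, a log2 fold change of 0.66 (SE 0.09, adjusted p = 0.0006). TIMP2, an inhibitor that also takes part in pro-MMP2 activation, read 15.02 on both control arrays against 16.50 and 16.44 in Pak1 shRNA cells, a log2 fold change of 1.45 (SE 0.07, adjusted p = 8.3e-06). TIMP3 was the only member with a fall of at least 2-fold. This matrix-bound inhibitor, known to act on ADAM17 and on aggrecan-cutting ADAMTS proteases as well as on MMPs, read 13.28 and 13.06 in control and 11.51 and 11.64 in Pak1 shRNA cells. It fell by 1.60 on the log2 scale (SE 0.10, adjusted p = 2.1e-05). TIMP4 was not well above background on any array.

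ADAMs known to keep the zinc-binding site rose in 8 of 11 tested cases and fell in none, with a median log2 fold change of 1.10. The called share was 72.7%, all of it rises, while 31% of all genes tested rose and 31.9% fell. Of the 8, ADAM33 lay close to the threshold (log2 fold change 0.22, adjusted p = 0.035), and its call depended on the processing. Over the settings and its other probes ADAM33 ranged from -0.09 to 0.35 on the log2 scale. ADAM19 read 8.76 and 8.92 in control and 12.56 and 12.59 in Pak1 shRNA cells, a log2 fold change of 3.73 (SE 0.08, adjusted p = 4.8e-07). ADAM8, best known from leukocytes, read 13.20 and 13.09 in control and 14.88 and 15.01 in Pak1 shRNA cells, a log2 fold change of 1.80 (SE 0.09, adjusted p = 6.6e-06). The main sheddases of epithelial cells were both higher. ADAM10 read 11.43 and 11.30 in control and 12.90 and 12.93 in Pak1 shRNA cells, a log2 fold change of 1.55 (SE 0.08, adjusted p = 9.3e-06). ADAM17, the TNF-releasing enzyme, read 11.45 and 11.23 in control and 12.40 and 12.54 in Pak1 shRNA cells, a log2 fold change of 1.13 (SE 0.10, adjusted p = 0.0001).

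ADAM21 and ADAM20, close relatives best known from testis, were also higher, without overlap between groups. ADAM21 read 8.93 and 8.89 in control and 11.66 and 11.76 in Pak1 shRNA cells, and its log2 fold change was 2.80 (SE 0.08, adjusted p = 9.5e-07). ADAM20 read 7.22 and 6.98 in control and 8.10 and 8.30 in Pak1 shRNA cells, and its log2 fold change was 1.10 (SE 0.11, adjusted p = 0.00018). Whether their probes read each other's transcripts was not tested. Of the ADAMs without the zinc site, which are thought to act by binding rather than cutting, 1 of 6 tested rose and 1 fell. The called share was 33.3%, beside 62.9% of all genes tested. ADAM11 read 7.85 and 7.77 in control and 8.69 and 8.96 in Pak1 shRNA cells (log2 fold change 1.01, adjusted p = 0.00021), and ADAM32 fell by 0.33 on the log2 scale.

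The 3 proteoglycan-cutting ADAMTS genes that were tested all rose, beside 31% of all genes tested. In that group of 7, 4 were not tested. ADAMTS4, an aggrecanase, read 6.99 and 6.95 in control and 10.08 and 10.48 in Pak1 shRNA cells, a log2 fold change of 3.31 (SE 0.13, adjusted p = 3.3e-06). ADAMTS9 read 6.93 and 6.95 in control and 8.72 and 9.01 in Pak1 shRNA cells, a log2 fold change of 1.92 (SE 0.11, adjusted p = 1.2e-05). ADAMTS1 rose by less (log2 fold change 0.61, adjusted p = 0.0013). Among the rest of the family, ADAMTS6 read 6.42 and 6.50 in control and 8.34 and 8.57 in Pak1 shRNA cells, a log2 fold change of 1.99 (SE 0.10, adjusted p = 8.1e-06). ADAMTS13, the von Willebrand factor protease, rose by 0.78 on the log2 scale (adjusted p = 0.00036). The procollagen N-propeptidases held no rise, and ADAMTS3 fell by 0.38 on the log2 scale (adjusted p = 0.012). By its brightest probe ADAMTS7, which cuts the cartilage matrix protein COMP, overlapped between groups (log2 fold change 0.10, adjusted p = 0.50).

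Not tested were 17 members. MMP8, MMP12, MMP20, MMP26, MMP27, TIMP4, ADAM2, ADAM6, ADAM18, ADAM30, ADAMTS8, ADAMTS12, ADAMTS15, ADAMTS18 and ADAMTS20 were not well above background on any array, and ADAMTS5 and ADAMTS16 were so on 1 control array only. None of them thus rose to well above background in Pak1 shRNA cells. At this signal a fall or a smaller change in these genes was not detectable.

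The size of several changes depended on the probe. Of the 16 tested members with more than 1 kept probe, 7 had every probe called in 1 direction, namely ADAM10, ADAM19, ADAM21, ADAM32, ADAMTS1, ADAMTS6 and MMP19, and none had probes called in opposite directions. ADAM10 was close between its probes, with log2 fold changes of 1.55 and 1.39. MMP19 gave 3.12 with the probe of higher mean over the 4 arrays and 0.71 with the other. In control cells that other probe was the brighter, at 9.78 and 9.55 against 9.25 and 9.07. The rise itself thus bore on which probe stood for MMP19. ADAM19 gave 3.73 with the brighter probe, while its other probe was not well above background on the control arrays. That probe gives only a bound, at least 1.57-fold with this processing. The dimmer probe of ADAMTS1 (at least 1.55-fold) and the lowest of ADAMTS6 (at least 1.67-fold) were likewise not well above background on the control arrays. ADAM11 gave 1.01 and 0.01, and only the first was called. Likewise 1 probe was called for ADAMTS13 (0.78, against 0.10) and for MMP25 (-0.62, against -0.06). The reverse was seen for ADAMTS7, ADAM12 and ADAM23, where the gene did not pass but 1 other probe was called. These probes gave 0.33 for ADAMTS7, -0.33 for ADAM12 and, with control arrays at background, at least 1.40-fold for ADAM23. Which transcripts the probes share was not tested.

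**Figure D3:**
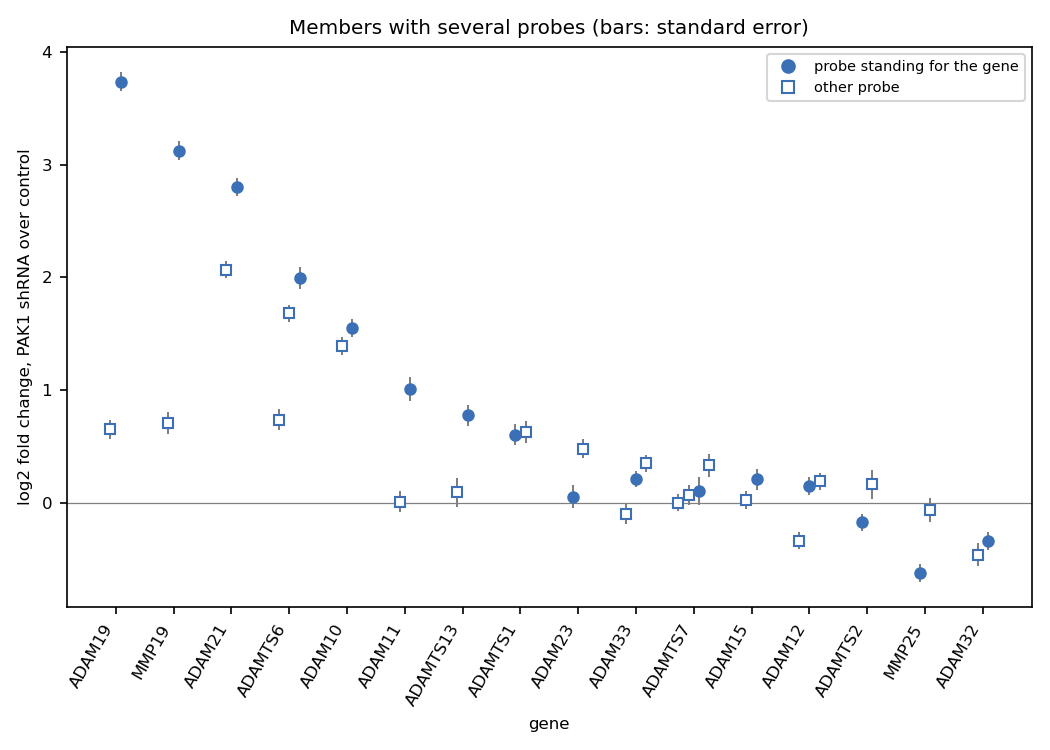
Log2 fold change of Pak1 shRNA over control (y axis) for each kept probe of the 16 tested members with several probes (x axis). Filled circles are the probes that stand for the gene, open squares the other probes, and bars the standard error; the probes of MMP19 lie far apart and those of ADAM10 close together. The other probes of ADAM19, ADAM23 and ADAMTS1 and the lowest of ADAMTS6 were not well above background in control cells. Their points are bounds under this processing. The lowest probe of ADAM33 was not well above background in Pak1 shRNA cells.

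**Figure D4:**
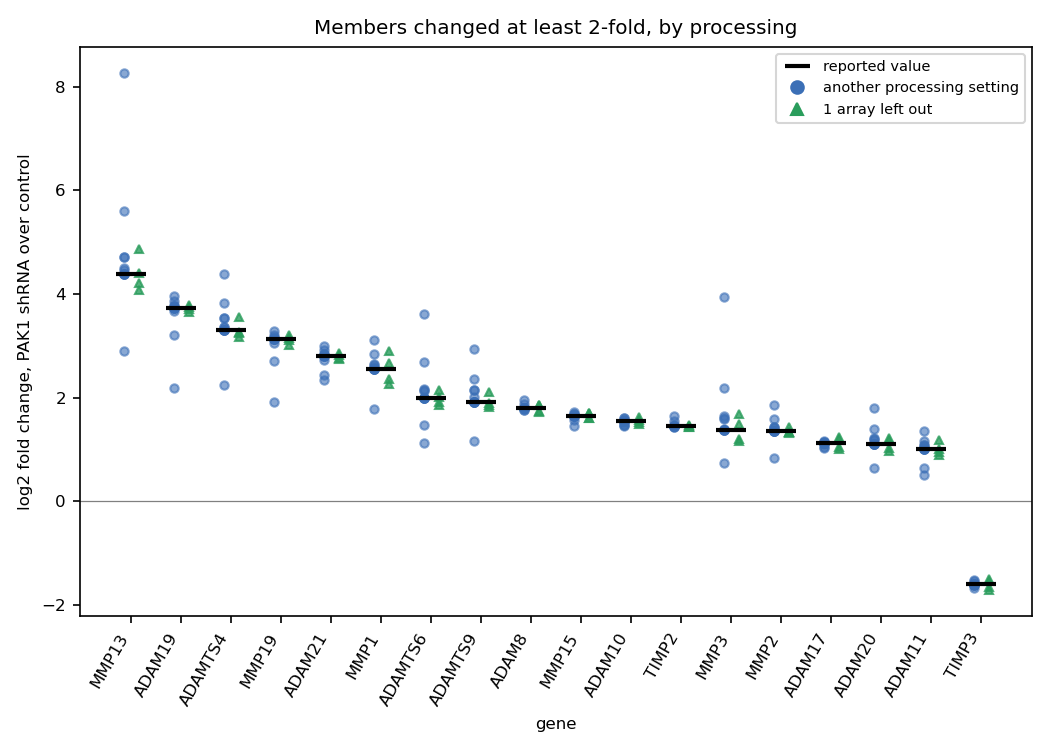
Log2 fold change of Pak1 shRNA over control (y axis) of the 18 members changed at least 2-fold (x axis), as reported (black bars), under other processing settings (blue circles) and with 1 array left out (green triangles). Each gene keeps its direction, and MMP13 and MMP3, whose control arrays are at background, move the most.

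Promoters of 38 members were found in RefSeq (GRCh38.p14, 250 bases before to 50 after the start site) and searched on both strands. No promoter was searched for MMP1, MMP2, MMP3, MMP9, MMP12, MMP13, MMP16, MMP17, MMP19, MMP25, MMP28, TIMP2, ADAM2, ADAM6, ADAM7, ADAM9, ADAM11, ADAM18, ADAM28, ADAM32, ADAM33, ADAMTS1, ADAMTS4, ADAMTS5, ADAMTS8, ADAMTS9, ADAMTS15 and ADAMTS16. The AP-1 motif TGANTCA, long known from MMP promoters, was present in 4 of 38 (10.5%), beside 7.71% of all 35116 promoters. It was found in MMP7, MMP10, MMP20 and ADAMTS12, and of the first pair MMP7 was higher and MMP10 lower. The MMP7 and MMP10 promoters are shown because the motif lies at the same place in both, at bases -67 to -61 counted from the start site. The 120 bases around each start are given on the gene's strand, with the motif in capitals, for MMP7 at chr11:102530738-102530857 and for MMP10 at chr11:102780619-102780738, both on the minus strand.
MMP7: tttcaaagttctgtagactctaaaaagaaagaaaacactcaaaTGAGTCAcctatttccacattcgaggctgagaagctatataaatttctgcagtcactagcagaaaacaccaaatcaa
MMP10: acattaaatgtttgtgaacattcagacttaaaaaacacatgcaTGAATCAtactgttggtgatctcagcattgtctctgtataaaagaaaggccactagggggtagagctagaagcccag

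The NF-kB motif GGGRNNYYCC (R is A or G, Y is C or T, N any base) was present in 4 of 38 member promoters (10.5%), beside 11.3% of all promoters. The core of the interferon response element (ISRE) was present in 0 of 38, beside 3.57%. The NF-kB matches were in ADAM10, ADAM17, ADAM19 and ADAMTS3. The sheddase promoters are shown with the match in capitals, for ADAM10 at chr15:58749698-58749817 and for ADAM17 at chr2:9555821-9555940, both on the minus strand of the same build. The ADAM10 match reads on both strands. The ADAM17 match reads only on the strand opposite the gene, so its capitals are the reverse complement of a motif match.
ADAM10: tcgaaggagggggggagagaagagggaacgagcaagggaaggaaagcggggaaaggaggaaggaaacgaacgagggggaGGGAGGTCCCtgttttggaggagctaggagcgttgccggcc
ADAM17: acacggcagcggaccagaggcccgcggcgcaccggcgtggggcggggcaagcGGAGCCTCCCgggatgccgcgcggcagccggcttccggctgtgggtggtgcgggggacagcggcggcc

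Genes that act with these proteases were read from 4 further lists. The lists were chosen with earlier results of these data known, so their called shares are not read as results about the lists. Of 35 regulators of proteolysis, 33 were tested, 14 rose and 9 fell, a called share of 69.7% beside 62.9% of all genes. PLAUR, the urokinase receptor, rose with a log2 fold change of 4.10, the protease inhibitor SERPINE2 with 3.91, and RHBDF2, a partner needed for ADAM17 maturation, with 1.89. PLAT, the tissue plasminogen activator, fell by 2.68 on the log2 scale. CAV1, a scaffold protein of membrane caveolae, fell by 1.66, and the ADAM10 partner TSPAN33 fell by 0.77. The other listed TSPAN genes were mixed. TSPAN10, TSPAN5 and TSPAN14 rose with log2 fold changes of 1.74, 1.70 and 0.31, TSPAN17 fell by 0.22, and TSPAN15 did not pass.

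Of 33 genes whose products are known to be shed by ADAM10 or ADAM17, 32 were tested, 18 rose and 4 fell. The called share was 68.8%, beside 62.9% of all genes tested, and the median log2 fold change was 0.61. ICAM1, an adhesion molecule, rose with a log2 fold change of 3.35 and the EGF-family ligand BTC with 3.03. TNF rose with a log2 fold change of 4.45, from a single control value of 7.29 because its spot was flagged and left out on the other control array, to 11.40 and 12.08. CDH2 fell by 0.62, NOTCH2 fell by 0.52 and SDC1 fell by 0.46 on the log2 scale, but with all probes of a gene averaged CDH2 stood at 0.30 and NOTCH2 at 0.11.

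Of 23 AP-1 and ETS factors, known for sites in MMP promoters, 22 were tested, 13 rose and 6 fell. The called share was 86.4%, beside 62.9% of all genes tested, in a list chosen with earlier results of these data known. BATF2, ATF3 and BATF3 rose with log2 fold changes of 7.36, 5.48 and 3.27, and EHF, FOSB and ETV4 fell to log2 fold changes of -2.77, -1.58 and -1.50. Without the second Pak1 shRNA array 12 of these factors were called in place of 19. Of 22 relatives of the proteases that the name rule left out, 17 were tested, 6 rose and 3 fell. The share called was 52.9%, beside 62.9% of all genes tested. ADAMTSL3, PAPPA and BMP1 rose with log2 fold changes of 1.95, 1.53 and 1.18, and THSD4, ECE2 and TLL1 fell by 0.67, 0.56 and 0.44 on the log2 scale.

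**Figure D5:**
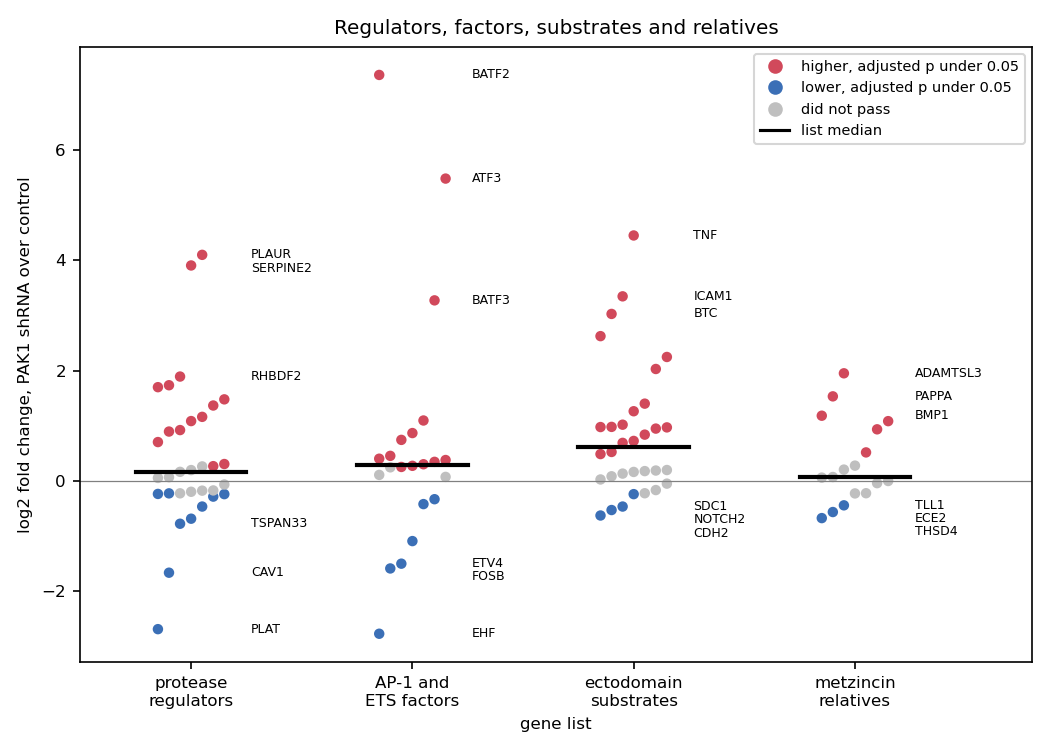
Log2 fold change of Pak1 shRNA over control (y axis) for the tested genes of 4 lists (x axis). Each point is a gene, red where higher and blue where lower at an adjusted p under 0.05, grey where it did not pass, and the black line is the list's median; the 3 largest rises and falls of each list are named.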

How the data were processed

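RNA of 4 samples was hybridised to 1-colour (Cy3) Agilent arrays. The authors deposited scanner intensity values per spot (Agilent Feature Extraction 9.5.3.1, hg19 design) and a table of processed log2 values, whose scale and direction matched the scanner values (r of at least 0.999 per array) and whose column medians were 9.40 to 9.42. Its filter is not given in the sources used here. From the intensities, local background was corrected in limma 3.58.1 (R 4.3.3) with normexp (offset 50), fitted without spots flagged for background, since the fit on all spots gave a background mean of -666 and -740 on the control arrays. Arrays were quantile normalized, flagged spots left out, and repeated spots averaged. A probe entered where both arrays of a group, in 1 group or in both, were well above background. The probe with the highest mean over the 4 arrays stood for its gene. Differences were tested with lmFit and eBayes on all 4 arrays, adjusted by Benjamini-Hochberg over 22001 genes and called at an adjusted p under 0.05. An exact permutation test of 2 against 2 arrays cannot go below p = 0.333. "At least" folds set the bright group's mean against the higher of the dim probe's own signal and the lowest signal well above background on that array. For MMP13 and MMP3 the probe's own signal was the higher on the control arrays. Their bounds therefore equal the fitted folds and hold only for the background model used. The number of arrays limits the precision.

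Named genes were PAK1, members changed at least 2-fold, the TIMPs, ADAM10, ADAM17, the largest change of each role, and the 3 largest rises and falls of each further list. Other members, markers and TSPAN genes were named after their values were seen. The members and lists were chosen with earlier results of these data known. The script was tested on simulated data. A search for the zinc site in the proteins was not run. Alternatives covered background, scaling, filter, flags, probe rule, test, threshold and left-out arrays.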

Additional observations from a re-analysis of the deposited data

How the results depend on the processing

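Between 20 and 30 members were higher across the settings that kept the threshold. Members lower numbered 2 with median centring, 4 with the unpaired t-test of the study's general statistics, 6 with normexp fitted on all spots or 75th percentile scaling, and 7 in the other settings on all arrays at that threshold; median centring moved the median of all genes to 0.14 and the 75th percentile scaling to 0.12 on the log2 scale, and 93.5% of member calls were then higher under median centring, against 78.8%. With the t-test, calls fell to 14 protease regulators, 10 AP-1 and ETS factors and, of the genes called over all genes, to 9134 (from 13830), and MMP3 no longer passed (adjusted p = 0.076). At 2-fold, 17 members were higher and 1 lower, with 11 regulators, 8 AP-1 and ETS factors, 9 substrates, 4 relatives and 3921 genes called; at an adjusted p under 0.01, 11 AP-1 and ETS factors were. Leaving out 1 array gave 24 to 27 members higher, 5 to 7 lower and 12 to 18 AP-1 and ETS factors, the lowest 2 of these without Pak1 shRNA replicate 2 (12) and without control replicate 1 (13). The lone array is then assumed to vary like the other group. Same-numbered arrays did not deviate together (r = 0.0088), so the numbers were not taken as pairs; with the replicate block 28 members were higher and 7 lower. Refitted on probes well above background on all 4 arrays, 25 of 44 members were higher. Signs turned for CDH2 (0.30) and NOTCH2 (0.11) with probes averaged; with median centring for MMP11 (0.17), MMP16 (0.24), ADAM28 (0.19), ADAM29 (0.27) and ADAMTS2 (0.10); for ADAM28 with the 75th percentile (0.29), no background correction (0.094) and the authors' values (0.087); and for ADAM23 with no background correction (-0.025) and the authors' values (-0.022). With 1 array left out, ADAM12 ranged from -0.34 to 0.17, ADAM23 from -0.052 to 0.42, ADAM29 from -0.17 to 0.031, ADAMTS7 from -0.078 to 0.28 and ADAMTS14 from -0.14 to 0.32. By another probe, ADAM12 was at -0.33, ADAMTS2 at 0.17 and ADAM33 at -0.094, the last not well above background in Pak1 shRNA cells; testing each probe apart was chosen after seeing the data. The cause was not tested. Over 49 members and 848 values, 761 kept direction and side of the threshold, 41 lost the call, 25 gained one and 21 changed sign. Signal near background limits MMP13 and MMP3, whose bounds ran from 7.43 to 105 and from 1.67 to 11.7.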
